A study of Mus musculus with 4 samples.

Results

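The cells described here were mouse liver endothelial cells that carried Vwf transcripts, and they numbered 348 of the 31290 cells kept from 4 single-cell RNA libraries. A kept cell had at least 500 detected genes and at most 20% of its unique molecular identifiers (UMIs, 1 per captured RNA molecule) on mitochondrial genes. A Vwf cell held at least 2 Vwf UMIs, at least 2 UMIs of the endothelial genes Ptprb, Kdr, Cdh5 and Pecam1 combined, no UMI of the T cell genes Cd3d, Cd3e and Cd3g or the B cell genes Cd79a and Cd79b, and at most 5 UMIs of the macrophage genes C1qa, C1qb and C1qc. Measured levels chose these cells, so the levels of these genes are given as a description and were not tested.

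The livers came from male C57BL/6J mice. The NCD library (n = 1) was from normal chow. The HFD libraries (n = 2, replicates 1 and 2) were from a high-fat diet that models non-alcoholic fatty liver disease, and the JQF library (n = 1) from that diet as well. After the diet had been established, the NCD and HFD groups received water by daily gavage for some weeks. The JQF group received the herbal extract Jiangtang Qingre Formula in the same period. The perfused livers were digested, passed through filters and run on a droplet platform that reads the 3' end of each transcript. The labels call the material immune cells, which did not describe the endothelial cells in it. NCD, HFD replicate 1, HFD replicate 2 and JQF gave 101, 51, 114 and 82 Vwf cells, and values below keep this order.

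Vwf encodes von Willebrand factor, the glycoprotein that tethers platelets to injured vessel walls and that endothelial cells store in Weibel-Palade bodies. In the liver it marks the endothelium of larger vessels, the portal veins, hepatic arteries and central veins. The sinusoids between them are lined by a fenestrated endothelium that carries scavenger receptors such as Stab2 and Lyve1 and lectins such as Clec4g. Central vein endothelium is known as a source of Wnt ligands and of R-spondin 3, which set the pericentral programme of nearby hepatocytes, while arterial endothelium carries Notch pathway genes and the gap junction protein connexin 40, encoded by Gja5. Vwf (ENSMUSG00000001930) lies on chromosome 6 at 125546774 to 125686679, plus strand, of GRCm38.

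The gate used Pecam1, Cdh5 and Vwf, so their shares describe the cells it chose and are no check of identity. Pecam1, an adhesion molecule of endothelial junctions, had a UMI in 97.0%, 96.1%, 98.2% and 100% of Vwf cells. Cdh5, the cadherin of endothelial junctions, had one in 96, 37, 111 and 78 of the 101, 51, 114 and 82 cells, the lowest share (72.5%) in HFD replicate 1. T cells of the same libraries, taken here as cells with at least 2 Cd3 UMIs and none of the endothelial gate genes, served as the background for genes outside the gates. That choice leaves out T cells holding free RNA of the endothelial gate genes, so their shares can understate the background. Of endothelial genes that the gate did not use, Tie1, an endothelial receptor kinase, had a UMI in 86.1%, 60.8%, 87.7% and 89.0% of Vwf cells and in at most 1.90% of T cells of any library. Erg, an endothelial transcription factor, had one in 89.1%, 64.7%, 78.1% and 81.7%, and in at most 3.53% of T cells. HFD replicate 1 was the lowest for both. Vwf itself had a median of 4, 7, 6.5 and 10.5 UMIs per Vwf cell, while 0%, 0.222%, 0.203% and 0.651% of T cells held any. The median Vwf cell held 19315, 11797, 9952 and 10124 UMIs, and the median T cell 10245, 6847, 6274 and 7651.

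Lymphatic vessels and platelets can also carry Vwf. No Vwf cell in any library held a UMI of Pdpn or Ccl21a, both defining genes of lymphatic vessels (0 of 348 cells over all libraries, which allows a share with a UMI of up to 0.862% and does not limit the share that expresses them), and none held UMIs of 2 or more of Prox1, Pdpn, Ccl21a and Mmrn1. With Pdpn and Ccl21a at 0, only Prox1 together with Mmrn1 could have met that count. A UMI of Prox1 or Mmrn1 was in 10, 1, 7 and 4 Vwf cells. Flt4 and Lyve1, lymphatic genes that sinusoids also carry, were present, Flt4 at 303, 71.2, 272 and 165 CPM (UMIs scaled to the total of all UMIs counted). The summed level of the lymphatic list was 517, 136, 450 and 238 CPM, and 995, 1943, 1699 and 1777 in sinusoidal cells. Pf4, the platelet chemokine, had a UMI in 6.93%, 0%, 1.75% and 3.66% of Vwf cells, and 6, 0, 2 and 1 cells held UMIs of 2 or more platelet genes. Leukocyte RNA was uneven between libraries. Ptprc, the gene of the pan-leukocyte antigen CD45, had a UMI in 4.95%, 41.2%, 18.4% and 13.4% of Vwf cells. A doublet score marked 3, 6, 5 and 2 Vwf cells, and no barcode was shared by Vwf cells of different libraries. HFD replicate 1 thus stood apart by its Ptprc and Cdh5 shares and by its few sinusoidal cells, and results that rest on it are also given without cells that held Ptprc.

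Sinusoidal transcripts were also found in Vwf cells. Clec4g had a UMI in 91.1%, 51.0%, 85.1% and 86.6% of Vwf cells, against 14.1%, 0.148%, 2.77% and 1.63% of T cells, and Stab2 in 69.3%, 7.84%, 40.4% and 31.7%. Droplets with too few UMIs to hold a cell carried Clec4g at 796, 14.6, 126 and 86.3 CPM, and Vwf cells at 658, 149, 551 and 569. In NCD the level in Vwf cells was thus below that of the cell-free droplets, and in the other libraries above it. The part of free RNA in these values was not tested. Vwf cells with at most 1 UMI of Clec4g and Stab2 together numbered 11, 32, 27 and 17.

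At the edge of the gate, 29, 10, 21 and 10 Vwf cells held exactly 2 Vwf UMIs. A further 66, 16, 69 and 22 endothelial cells held exactly 1 and stayed outside.

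The share of Vwf cells among cells that passed every part of the gate except Vwf, called endothelial cells here, was lowest in NCD. They were 101 of 3775 (2.68%, exact 95% binomial interval 2.18% to 3.24%) in NCD. They were 51 of 450 in HFD replicate 1 (11.3%, 8.56% to 14.6%), 114 of 1495 in HFD replicate 2 (7.63%, 6.33% to 9.09%) and 82 of 880 in JQF (9.32%, 7.48% to 11.4%). Intervals here cover counting error only. The shares were not tested between diets, and both HFD libraries and the JQF library lay above the NCD interval. Of these endothelial cells, 201, 336, 386 and 320 were neither Vwf cells nor sinusoidal cells as defined next, which is most of the denominator in HFD replicate 1.

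That order was the reverse of the one among all kept cells. There the share was 1.69% (1.38% to 2.05%) in NCD, 0.783% (0.583% to 1.03%) and 1.11% (0.917% to 1.33%) in the HFD replicates and 0.960% (0.764% to 1.19%) in JQF. The denominators differed widely, since sinusoidal cells (the same exclusions, at least 2 UMIs of Clec4g and Stab2 together and at most 1 of Vwf) numbered 3473, 63, 995 and 478. Of Vwf and sinusoidal cells together, Vwf cells were 2.83%, 44.7%, 10.3% and 14.6%. How far capture set the number of sinusoidal cells was not tested.

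Thinning kept the order of the endothelial shares and changed that of the shares of all kept cells. With every cell thinned to 3000 UMIs and shallower cells left out, Vwf cells were 34 of 3361 endothelial cells in NCD (1.01%, 0.702% to 1.41%). They were 27 of 201 (13.4%, 9.04% to 18.9%) and 73 of 1087 (6.72%, 5.30% to 8.37%) in the HFD replicates and 66 of 619 in JQF (10.7%, 8.34% to 13.4%). Of all kept cells the thinned shares were 0.650% in NCD, 0.464% and 0.823% in the HFD replicates and 0.829% in JQF, so NCD was no longer the highest. Among Vwf cells with at most 1 Clec4g and Stab2 UMI NCD was the lowest of all kept cells as well, at 0.184% against 0.491%, 0.263% and 0.199%.

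**Figure D1:**
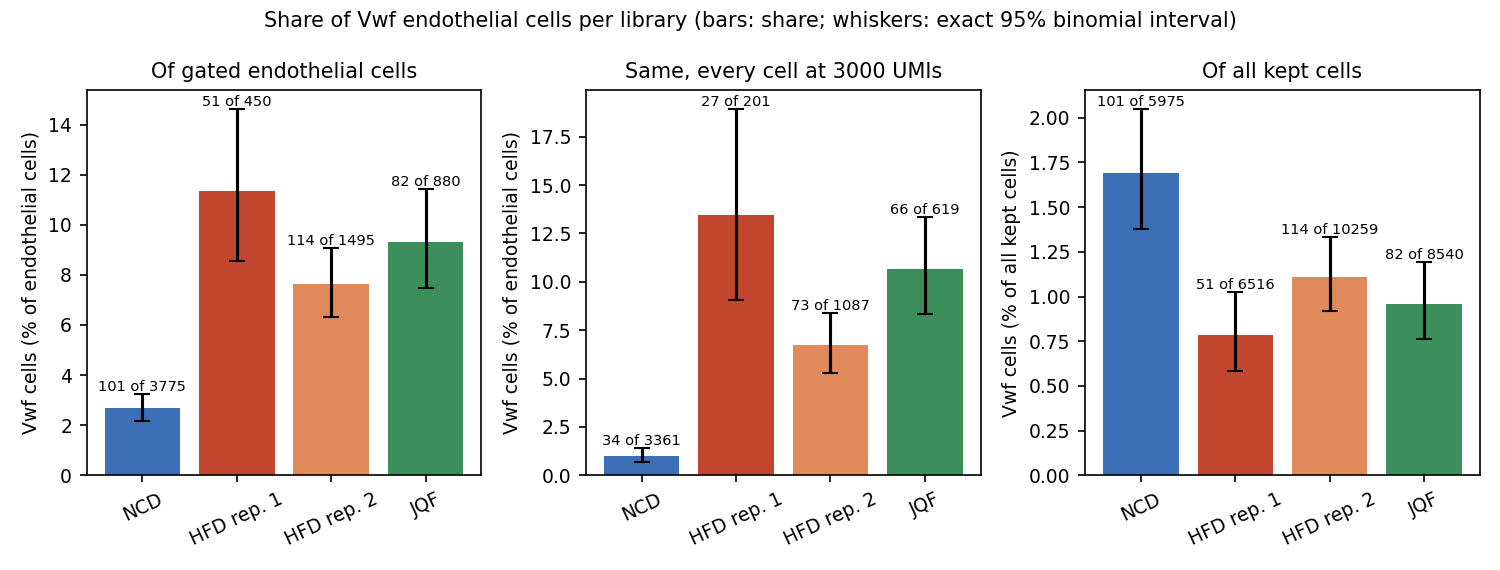
Vwf cells as a percentage of endothelial cells (left), of endothelial cells thinned to 3000 UMIs each (middle) and of all kept cells (right), per library, with exact 95% binomial intervals as whiskers and cell counts above. NCD is lowest of endothelial cells (2.68%) and highest of all kept cells (1.69%), a rank it lost after thinning (0.650%, not plotted).

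The Vwf cells held a venous and an arterial set of transcripts. Cells were counted as venous with at least 2 UMIs of Rspo3, Wnt9b and Selp together and as arterial with at least 2 UMIs of Gja5, Bmx, Hey1 and Sema3g together, a split chosen after values were seen and given with no test. Venous transcripts were in 227 of 348 Vwf cells (65.2%), of which 168 held no UMI of the arterial genes. Arterial transcripts were in 77 (22.1%), of which 41 held no UMI of the venous genes. Of venous cells 46 of 56, 13 of 31, 75 of 89 and 34 of 51 held no arterial UMI, and of arterial cells 19 of 26, 2 of 12, 7 of 17 and 13 of 22 held no venous one. HFD replicate 1 had the most overlap of the sets on both counts. Venous cells that did not reach the arterial count numbered 50, 21, 82 and 42, arterial cells that did not reach the venous count 20, 2, 10 and 13, cells that reached both 6, 10, 7 and 9, and cells that reached neither 25, 18, 15 and 18.

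Efnb2, Adgrg6, Wnt2 and Cdh13, which the split did not use, differed with it, while Clu, Sox17 and Thbd, also unused, did so unevenly. Efnb2, the ephrin ligand of arterial endothelium, was at 68.5 CPM in venous and 381 in arterial Vwf cells of NCD, at 21.7 and 564 in HFD replicate 2 and at 2.89 and 372 in JQF. Adgrg6, an adhesion G protein-coupled receptor, was at 11.4 and 683, 36.5 and 767, and 20.2 and 442 in the same libraries. Neither gene was particular to arterial cells, as cells that reached neither count held Efnb2 at 462, 128 and 274 CPM and Adgrg6 at 256, 148 and 328 in these libraries, Efnb2 in NCD being above the arterial cells. Wnt2, a Wnt ligand of central vein endothelium, went the other way, at 394 and 21.1, 625 and 19.0, and 737 and 28.2. Cdh13, the gene of T-cadherin, was also higher in venous cells, at 2665 and 647, 1747 and 1002, and 2223 and 762. HFD replicate 1 had only 2 arterial cells, and its Efnb2 values of 91.7 and 116 lay close together.

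Cells that reached both counts held the most Vwf UMIs per cell in HFD and JQF. Their median was 37, 29 and 39 UMIs in HFD replicate 1, HFD replicate 2 and JQF, against 10, 7.5 and 11.5 in venous cells. In NCD the medians were 11 in cells with both, 4 in venous and 11.5 in arterial cells. Cells with both were also deeper than venous cells in every library, with a median of 27093, 13270, 23026 and 13268 UMIs against 16705.5, 8621, 9724 and 8798.5. Scaled to UMIs, Vwf in cells with both was at 578, 2384, 1070 and 2607 CPM against 375, 1593, 1125 and 1613 in venous cells. In HFD replicate 2 they thus did not hold the most Vwf per UMI. The doublet score marked 0, 1, 2 and 0 of the cells with both. Cells that reached neither held the fewest Vwf UMIs, with medians of 3, 2.5, 3 and 4.5, and in HFD replicate 1 a total of 14 of these 18 cells held Ptprc.

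**Figure D2:**
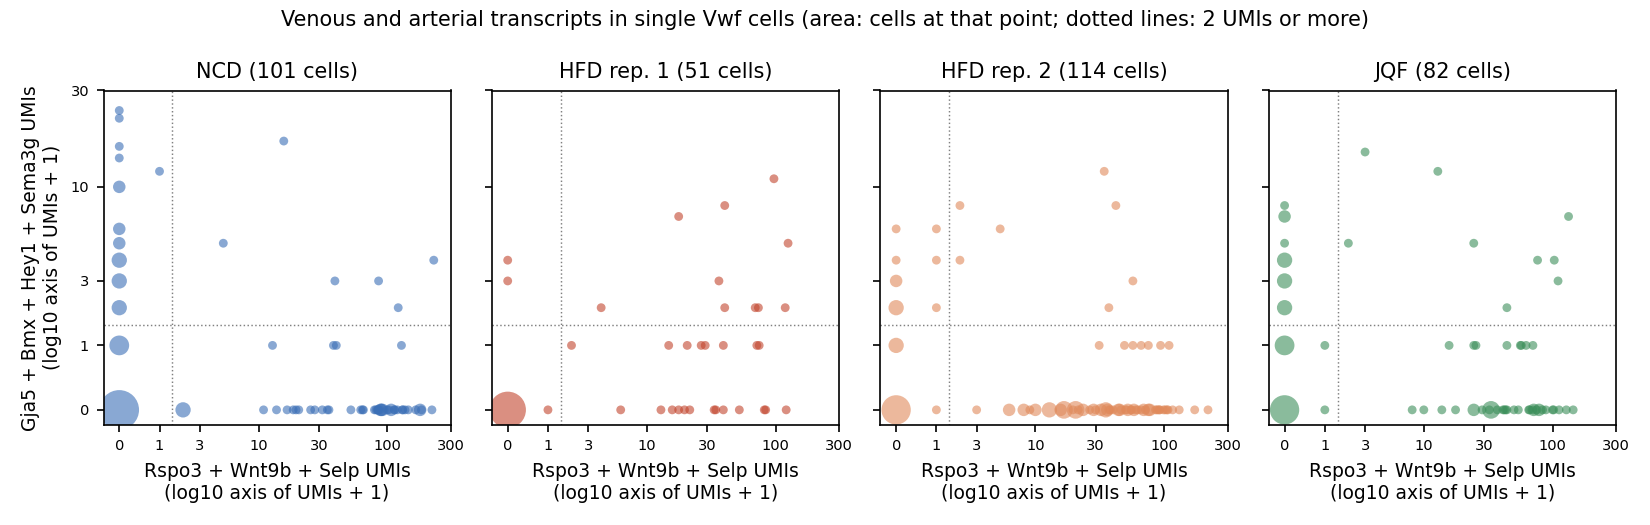
UMIs of 3 venous genes (horizontal, log axis of UMIs + 1) against UMIs of 4 arterial genes (vertical, log axis of UMIs + 1) in each Vwf cell, 1 panel per library, with point area giving the cells at that point and dotted lines the count of 2. Over all libraries most cells lie along 1 of the axes, the venous one more often (227 of 348 cells venous, 77 arterial).

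The first comparison asked how Vwf cells differ from sinusoidal cells of the same livers. UMIs were summed per library and cell class and tested with edgeR with library as a block (n = 4 libraries of each class). Of 11180 genes tested, 408 were higher in Vwf cells (3.65%) and 275 lower (2.46%) at an adjusted p of 0.05. Levels are in CPM, UMIs scaled to the UMI total of the class in that library. Fold changes are log2, and their median over all tested genes was 0.02. The value after each ±, called SE throughout, was worked back from the fold change and the F statistic of its edgeR test. It was not estimated separately. For genes with few UMIs in a class or group it can be too small, and it is only a rough guide there. Leaving out JQF lowered the calls to 131 higher and 20 lower, leaving out HFD replicate 2 to 189 and 52, and leaving out HFD replicate 1 raised them to 658 and 581.

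**Figure D3:**
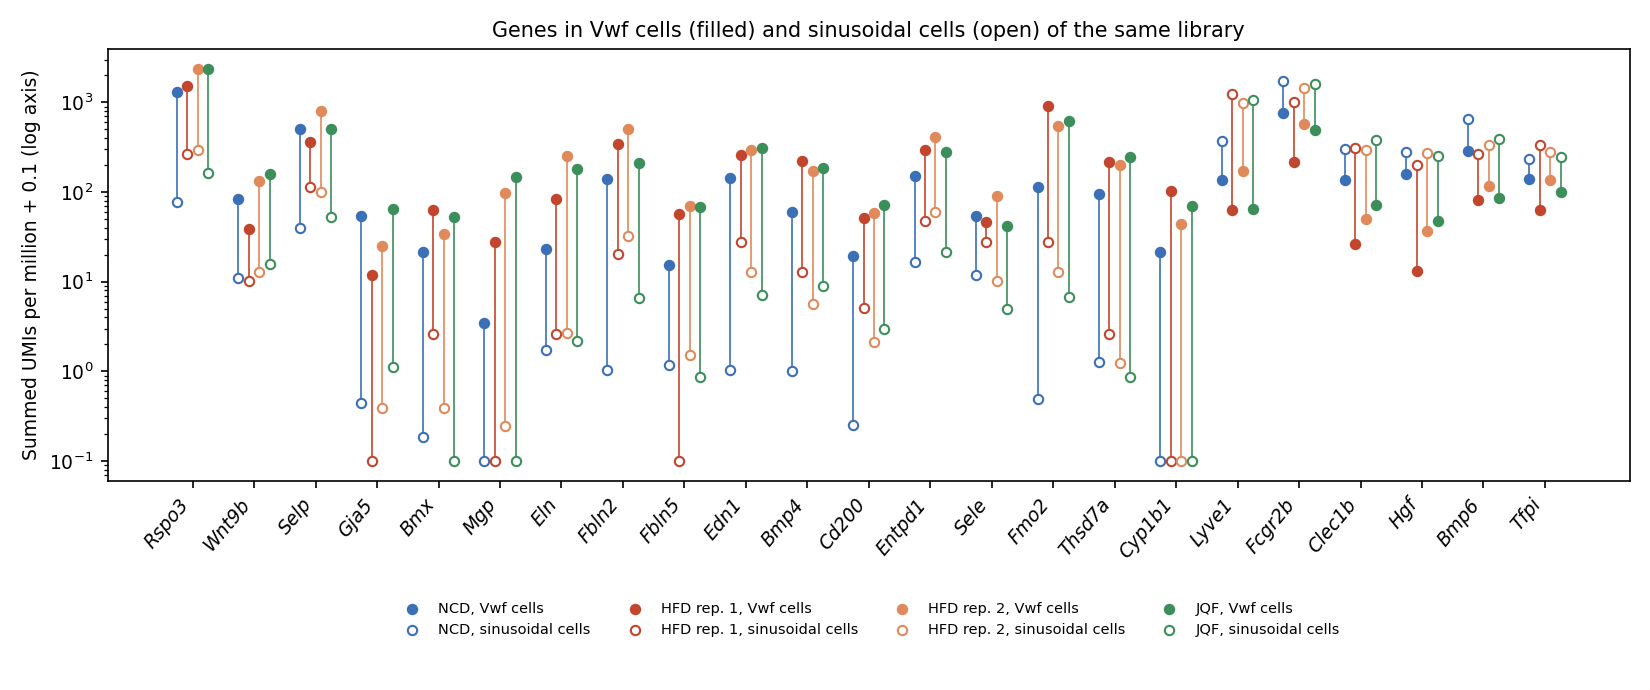
Levels of 23 genes (CPM + 0.1, log axis) in Vwf cells (filled) and sinusoidal cells (open) of each library, joined by a line. The venous, arterial and matrix genes on the left are higher in Vwf cells of every library, such as Rspo3 at 1312 to 2367 against 76.5 to 295, and the 6 genes on the right are lower.

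Of the central vein and Wnt genes, 5 of 13 tested were higher in Vwf cells, Wnt9b, Rspo3, Selp, Lhx6 and Cdh13, and 1, Kit, was lower, with a median log2 fold change of 0.61. Rspo3 (chromosome 10, 29452416 to 29535867), the secreted amplifier of Wnt signals, was at 1312, 1507, 2367 and 2353 CPM in Vwf cells and at 76.5, 265, 295 and 162 in sinusoidal cells. The classes did not overlap, and the log2 fold change was 3.41 ± 0.29 (SE), adjusted p = 0.00085. Wnt9b (chromosome 11, 103727364 to 103749821), a Wnt ligand, was far less abundant at 84.0, 38.2, 132 and 158 against 10.9, 10.1, 12.6 and 15.7, a log2 fold change of 3.13 ± 0.19 with an adjusted p of 0.00016. Cdh13 was at 1426, 638, 1450 and 1268 against 540, 379, 439 and 336 (1.48 ± 0.22, adjusted p = 0.0089).

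Not every venous gene separated the classes. Wnt2 was at 173, 186, 438 and 304 CPM in Vwf cells against 254, 331, 318 and 420 in sinusoidal cells, a log2 fold change of -0.31 ± 0.22 that did not pass the test. Thbd, the gene of thrombomodulin, was at 257, 185, 466 and 445 against 127, 220, 238 and 332 (0.59 ± 0.22, adjusted p = 0.18). Kit, the stem cell factor receptor that marks pericentral sinusoids, was at 174, 83.1, 145 and 82.2 against 273, 222, 193 and 222 (-0.92 ± 0.21, adjusted p = 0.043). Over the alternative settings between 3 and 8 genes of this group were higher. Calls over all genes moved as well, from 131 higher of 10887 (without JQF) to 922 of 10636 (without cells holding Ptprc).

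Of 16 arterial and portal genes tested, 8 were higher in Vwf cells, Mgp, Gja5, Bmx, Fbln5, Eln, Adgrg6, Jag1 and Hey1, and none lower, with a median of 1.57. Gja5 (chromosome 3, 96904693 to 97077416) was at 53.9, 11.9, 24.8 and 64.0 CPM against 0.340, 0, 0.287 and 1.03, a log2 fold change of 6.81 ± 0.34 (adjusted p = 7.3e-05). Bmx, a tyrosine kinase of arterial endothelium, was at 21.6, 63.3, 33.8 and 52.3 against 0.0849, 2.53, 0.287 and 0 (7.51 ± 0.46, adjusted p = 0.00016). Jag1, a Notch ligand, was at 81.9, 47.5, 117 and 153 against 12.6, 43.0, 26.7 and 24.8 (2.19 ± 0.32, adjusted p = 0.0091). In HFD replicate 1 the Jag1 levels of the classes nearly met.

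Efnb2 and Dll4, which the split did not use, were higher in arterial than in venous Vwf cells of NCD, HFD replicate 2 and JQF. Dll4 was at 17.1 CPM in venous and 164 in arterial cells of NCD, 14.8 and 184 in HFD replicate 2 and 11.6 and 132 in JQF. Neither gene separated Vwf cells as a whole from sinusoidal cells. Efnb2 was at 276, 40.9, 122 and 186 CPM against 167, 88.5, 129 and 140 (0.13 ± 0.25, adjusted p = 0.85). Among Vwf cells with at most 1 Clec4g and Stab2 UMI, which leaves 11 cells in NCD, 5 arterial genes were higher and 2 lower, beside 7.35% higher and 6.18% lower of all genes in that setting, and the group's median was -0.30.

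Eln, Fbln5 and Mgp, members of the arterial and portal list counted above, encode matrix proteins. Eln (chromosome 5, 134702593 to 134747323), the gene of elastin, was at 23.3, 83.1, 252 and 180 CPM in Vwf cells and at 1.61, 2.53, 2.58 and 2.06 in sinusoidal cells (5.39 ± 0.50, adjusted p = 0.0012). Fbln5, which helps to assemble elastic fibres, was at 15.3, 56.7, 70.7 and 67.2 against 1.09, 0, 1.43 and 0.774 (4.96 ± 0.44, adjusted p = 0.0010). Mgp (chromosome 6, 136872435 to 136875823), an inhibitor of calcification, had 296 UMIs in Vwf cells of all libraries and 1 in sinusoidal cells. The pooled ratio was 3855 (687 to 152780, counting error only). NCD gave most of the pooled sinusoidal UMIs and only 8 of the Mgp UMIs, so this ratio ignores the pairing by library and describes no single library. By library, Mgp was at 3.39, 27.7, 97.8 and 146 CPM against 0, 0, 0.143 and 0. Few cells carried it, since 87.5%, 95.2%, 95.4% and 73.7% of its UMIs sat in 3 cells of each library.

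Of the 12 basement membrane and matrix genes tested, Fbln2 and Bgn were higher, Hspg2 was lower and the median was -0.40. Fbln2 (chromosome 6, 91212455 to 91272540), which encodes the matrix glycoprotein fibulin-2, was at 141, 344, 507 and 210 CPM against 0.934, 20.2, 32.2 and 6.45 (5.18 ± 0.56, adjusted p = 0.0026). Bgn, the proteoglycan biglycan, was at 624, 489, 811 and 828 against 362, 245, 334 and 328 (1.12 ± 0.17, adjusted p = 0.011). Hspg2, the heparan sulfate proteoglycan perlecan, was at 168, 161, 339 and 184 against 252, 518, 508 and 425 (-0.97 ± 0.21, adjusted p = 0.036). The collagen IV genes Col4a1 and Col4a2 did not pass, at -0.84 ± 0.24 and -0.90 ± 0.26.

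The haemostasis genes, beyond Vwf itself, were mixed, with 4 of 17 tested higher, Entpd1, Selp, Plat and Cd63, 1 lower, Tfpi, and a median of 0.33. Counts moved between 2 and 8 higher and between 0 and 4 lower over the alternative settings. Calls over all genes went from 131 higher of 10887 (without JQF) to 922 of 10636 (without cells holding Ptprc). Those lower went from 20 of 10887 (without JQF) to 858 of 22833 (no count filter). Selp (chromosome 1, 164115264 to 164150026), the gene of P-selectin, which shares Weibel-Palade bodies with von Willebrand factor, was at 509, 365, 810 and 507 CPM against 40.1, 114, 100 and 52.4 (3.00 ± 0.30, adjusted p = 0.0018). Entpd1, which encodes CD39, an ectoenzyme that clears ATP and ADP and so restrains platelets, was at 150, 298, 414 and 280 against 16.4, 48.0, 59.8 and 21.2 (3.13 ± 0.20, adjusted p = 0.00023). Plat, the tissue plasminogen activator gene, was low in both classes, at 15.3, 9.23, 21.8 and 56.6 against 4.04, 0, 1.58 and 3.87 (3.07 ± 0.45, adjusted p = 0.0087).

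Tfpi, which encodes the tissue factor pathway inhibitor, was lower in Vwf cells, at 141, 63.3, 135 and 100 CPM against 236, 334, 283 and 243 (-1.29 ± 0.24, adjusted p = 0.022). F8, the gene of clotting factor VIII, the protein that von Willebrand factor carries in blood, was abundant in both classes, at 1227, 293, 807 and 749 against 1545, 834, 835 and 826 (-0.47 ± 0.25, adjusted p = 0.36). Angpt2, another content of Weibel-Palade bodies, was at 6.79, 2.64, 6.02 and 23.5 against 18.1, 65.7, 57.3 and 21.9 (-1.82 ± 0.57, adjusted p = 0.12). Neither F8 nor Angpt2 passed the test.

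Among leukocyte adhesion and cytokine genes, 4 of 16 tested were higher, Selp, Il1r1, Sele and Vcam1, none was lower, and the median was -0.05. Il1r1, the interleukin-1 receptor, was at 390, 302, 525 and 518 CPM against 122, 159, 214 and 189 (1.38 ± 0.16, adjusted p = 0.0039). Sele, the gene of E-selectin, was at 53.9, 46.2, 91.0 and 41.6 against 11.9, 27.8, 10.0 and 4.90 (2.48 ± 0.34, adjusted p = 0.0064). In Vwf cells 46.5%, 88.6%, 41.3% and 82.1% of the Sele UMIs sat in 3 cells. Vcam1, a ligand for leukocyte integrins, was at 442, 266, 381 and 344 against 249, 131, 224 and 109 (1.08 ± 0.19, adjusted p = 0.018). Icam1 was not separated, at 0.12 ± 0.22. The list was less one-sided in other settings, with 2 to 4 genes higher and 0 to 4 lower. Without cells holding Ptprc it had 4 higher and 4 lower, where 922 of all 10636 genes were higher and 805 lower.

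Among secreted signals and their receptors, Bmp4 and Acvrl1 were higher and Bmp6 and Hgf lower, of 18 genes tested with a median of 0.10. Bmp4 (chromosome 14, 46383520 to 46390669) was at 59.4, 220, 172 and 187 CPM against 0.900, 12.6, 5.59 and 8.77 (5.07 ± 0.30, adjusted p = 0.00015). Bmp6, which sinusoidal endothelium makes to signal iron status to hepatocytes, went the other way, at 289, 80.4, 117 and 85.4 against 651, 263, 333 and 386 (-1.60 ± 0.20, adjusted p = 0.0046). Hgf, the hepatocyte growth factor, was at 158, 13.2, 36.9 and 47.0 against 282, 202, 273 and 255 (-2.30 ± 0.41, adjusted p = 0.019).

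The vasoconstrictor gene Edn1 (chromosome 13, 42301476 to 42307990), which encodes endothelin-1, was at 142, 258, 293 and 309 CPM in Vwf cells against 0.934, 27.8, 12.9 and 6.96 in sinusoidal cells (5.38 ± 0.57, adjusted p = 0.0024). Its receptor gene Ednrb was at 897, 303, 525 and 1280 against 53.6, 126, 145 and 188 (2.55 ± 0.42, adjusted p = 0.014). They were the only genes to pass among 15 shear-related genes and endothelial transcription factors, whose median was 0.18. Klf2, the flow-induced factor, was at 1597, 649, 1277 and 905 against 1058, 970, 1008 and 777, and Erg at 244, 162, 211 and 250 against 256, 281, 216 and 218. Neither Klf2 nor Erg passed.

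Of 17 genes of continuous endothelium in general, Cd200, Ly6c1, Cd9 and Plvap were higher and none lower, with a median of 0.67. Cd200, an inhibitory ligand for myeloid cells, was at 19.5, 51.4, 58.7 and 72.6 CPM against 0.153, 5.05, 2.01 and 2.84 (5.33 ± 0.45, adjusted p = 0.00072). Plvap, which forms the diaphragms of caveolae and fenestrae, was at 225, 272, 575 and 405 against 77.5, 263, 195 and 166 (1.17 ± 0.25, adjusted p = 0.035), and in HFD replicate 1 its levels were almost equal. Over the alternative settings 1 to 11 genes of this group were higher. The 1 was without JQF, where 131 of all 10887 genes were higher. The 11 were without cells holding Ptprc, where 922 of all 10636 were.

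The genes with the largest fold changes of those passing at 50 CPM or more were, in order, Cyp1b1, Mgp, Adamtsl1, Thsd7a, Fmo2, Myrip, Nrg1, Npr3, Dnm3 and Eln. Cyp1b1 (chromosome 17, 79701537 to 79715061), a cytochrome P450, was at 21.2, 102, 43.6 and 70.4 CPM in Vwf cells and had no UMI in sinusoidal cells of any library. With libraries pooled, Cyp1b1 was at least 1090-fold higher against a floor of 3 UMIs over the group. NCD gave 58859853 of the 70109970 pooled sinusoidal UMIs, so this ignores the pairing by library and is no bound for a single library. Fmo2 (chromosome 1, 162874317 to 162898726), a flavin monooxygenase, was at 113, 902, 539 and 615 against 0.391, 27.8, 12.8 and 6.71 (6.33 ± 0.50, adjusted p = 0.00056). Nrg1, the neuregulin-1 growth factor, was at 673, 102, 282 and 163 against 4.66 in NCD and no more than 12.6 elsewhere (5.80 ± 0.60, adjusted p = 0.0022). Npr3, the natriuretic peptide clearance receptor, was at 82.3, 18.5, 22.6 and 97.1 against 1.78, 0, 0.287 and 1.81 (5.65 ± 0.25, adjusted p = 4.7e-05). Of the Npr3 UMIs of Vwf cells, 55.7%, 100%, 86.7% and 80.2% sat in 3 cells of each library, and of those of Nrg1 32.2%, 89.6%, 65.1% and 33.3%. Cyp1b1 and Fmo2 were lowest in NCD, and Nrg1 was highest there.

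The sinusoidal genes were lower in Vwf cells in 13 of 18 tested, none was higher, and the median was -1.72. The sinusoidal cells were chosen by Clec4g and Stab2, so this list is tied to that choice. It describes the classes and is no independent check of them. Lyve1 (chromosome 7, 110850607 to 110863239), the hyaluronan receptor, was at 137, 63.3, 172 and 64.0 CPM against 374, 1228, 989 and 1053 (-2.99 ± 0.47, adjusted p = 0.011). Fcgr2b, the inhibitory Fc receptor of sinusoids, was at 753, 219, 572 and 490 against 1722, 1006, 1452 and 1612 (-1.58 ± 0.21, adjusted p = 0.0055). Clec1b was at 137, 26.4, 49.6 and 71.5 against 303, 311, 291 and 384 (-2.29 ± 0.33, adjusted p = 0.0081). Lyve1, Fcgr2b and Clec1b were above 0 in Vwf cells of every library, while 2 of the 20 listed genes were at 0 in HFD replicate 1 and 1 in HFD replicate 2. Without the JQF library none of the 18 tested passed.

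The genes most reduced in Vwf cells included Aass (lysine breakdown, -2.69 ± 0.48), Cntfr (a cytokine receptor subunit, -2.31 ± 0.36), Akr1b8 (an aldo-keto reductase, -2.24 ± 0.27) and Gatm (creatine synthesis, -2.17 ± 0.33). Aass was at 92.0, 13.2, 95.5 and 36.3 CPM against 301, 536, 377 and 282, with no overlap. Gatm was at 182, 111, 66.9 and 38.4 against 519, 311, 397 and 401. Hbb-bt, a haemoglobin gene, had the most negative fold change (-3.58 ± 0.76, adjusted p = 0.035) at 14.0, 0, 0.752 and 0 against 46.2, 7.58, 50.3 and 175.

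Few markers of other cells passed between the classes. No gene passed among 12 lipid handling, 8 leukocyte, 6 cycling, 3 stellate and mural, 2 platelet and 2 bile duct and mesothelium genes tested. The lymphatic list had Lyve1 and Flt4 lower of 4 tested, both of which sinusoids also carry. The hepatocyte genes Fabp1 and Ttr, of 8 tested, were lower in Vwf cells, and Jun was the 1 immediate early or heat shock gene of 10 to be higher (1.09 ± 0.22, adjusted p = 0.029), a group that dissociation is known to raise. The summed level of the 10 leukocyte genes was 358, 7692, 3495 and 1294 CPM in Vwf cells and 161, 265, 1336 and 834 in sinusoidal cells. Its part in the class differences was not tested, and without cells holding Ptprc the calls rose to 922 higher and 805 lower.

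**Figure D4:**
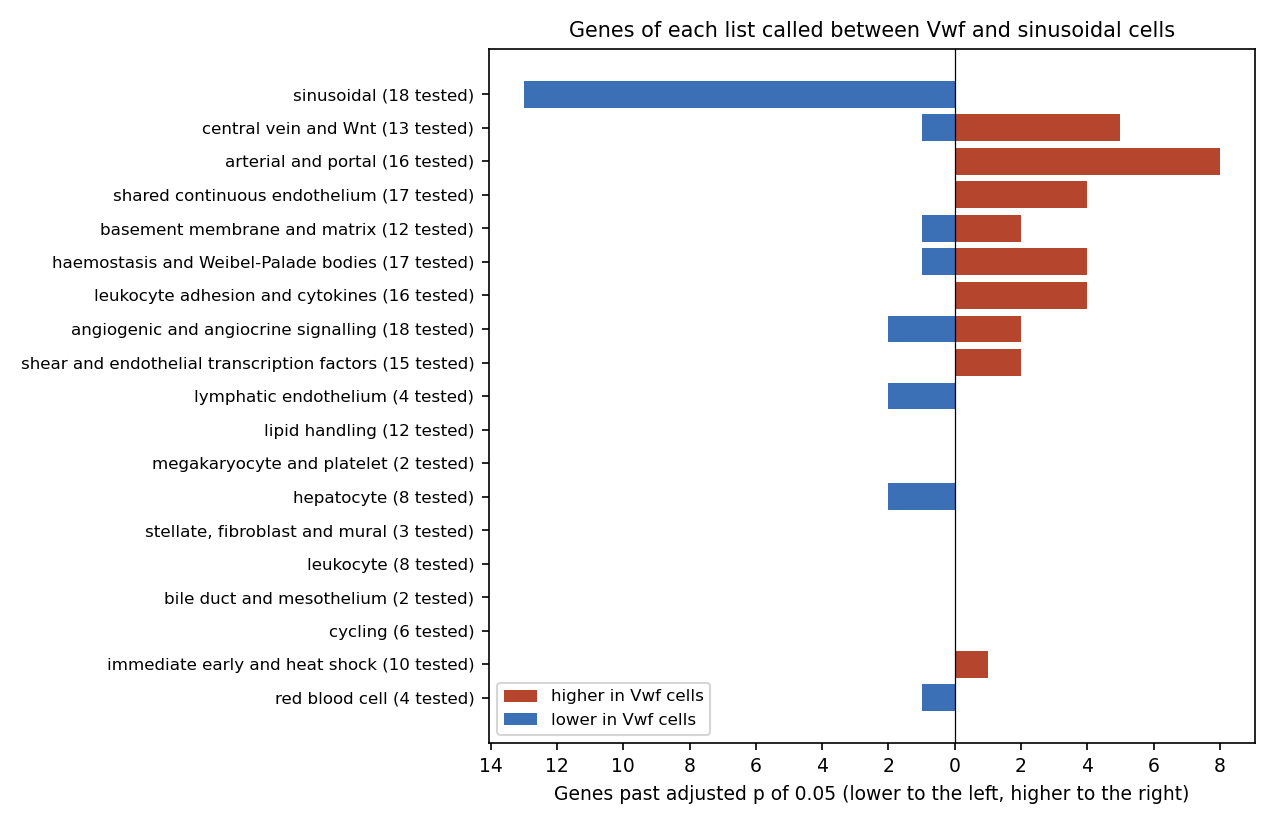
Genes of each of 19 lists past an adjusted p of 0.05 between Vwf and sinusoidal cells, higher to the right and lower to the left (edgeR, 4 libraries of each class), with the number tested beside each name. The arterial and portal list has the most higher genes (8 of 16) and the sinusoidal list the most lower (13 of 18).

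The next comparison asked what differed in Vwf cells on the high-fat diet. Of 10760 genes tested, 249 were higher in HFD than in NCD (2.31%) and 114 lower (1.06%). NCD was 1 library, so the spread came from the HFD pair alone and NCD was assumed to vary like it. No gene of the central vein group passed, and Rspo3 was at 1312 CPM in NCD and at 1507 and 2367 in the HFD replicates. No gene passed among the haemostasis, the continuous endothelium, matrix, or shear and transcription factor genes either. Of 17 sinusoidal genes Clec1b fell (-1.90 ± 0.57, adjusted p = 0.038). None of that list fell with DESeq2, with no scaling beyond library totals or with no count filter. The same held without predicted doublets and with at most 1 Clec4g and Stab2 UMI. Without cells holding Ptprc 9 of 17 fell. In that setting 3.71% of all genes were higher and 6.52% lower, and 4 of 13 central vein genes, 3 of 18 continuous endothelium genes and 4 of 18 haemostasis genes rose, and 1 haemostasis gene fell. DESeq2 called 39 genes (28 higher and 11 lower), the fit without predicted doublets 27 (5 and 22), and Vwf cells with at most 1 Clec4g and Stab2 UMI none, with 455 genes at an unadjusted p under 0.05.

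Leukocyte and cell cycle genes rose in HFD, and the number of cells that carried them varied. Of the leukocyte list, 5 of 8 tested rose, S100a8, S100a9, Lyz2, Coro1a and Ptprc, with a median of 3.81 beside 0.05 for all genes. S100a8 rested on HFD replicate 2 alone, with no UMI in NCD or in HFD replicate 1. S100a9, a calcium-binding protein of neutrophils, was at 2.54 CPM in NCD and at 9.23 and 1421 in the HFD replicates, and 99.5% of its UMIs in HFD replicate 2 sat in 3 cells. Lyz2, the lysozyme of myeloid cells, was at 4.24 in NCD, 348 and 300 in the HFD pair and 492 in JQF (6.17 ± 1.06, adjusted p = 1.1e-05), with 65.2%, 86.2% and 97.6% of its UMIs in 3 cells of HFD replicate 1, HFD replicate 2 and JQF. It had a UMI in 20 and 47 Vwf cells of the HFD replicates, and Coro1a, an actin regulator of leukocytes, in 22 and 14, with 38.7% and 65.5% of its UMIs in 3 cells.

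Of 6 cycling genes tested, 5 rose, Top2a, Mki67, Birc5, Stmn1 and Cdk1. Top2a, a topoisomerase of dividing cells, had no UMI in NCD and was at 146 and 9.78 CPM in the HFD replicates, at least 46.7-fold higher against 3 UMIs in NCD, with 83.8% of its UMIs in HFD replicate 1 in 3 cells. Mki67, the Ki-67 proliferation antigen gene, was at 0.424 in NCD and 199 and 14.3 in HFD, a ratio of 192 (34.0 to 7626, counting error only). Stmn1 was at 8.48 in NCD and 277 and 13.5 in HFD (4.06 ± 0.82, adjusted p = 0.00027). Lcn2, the neutrophil protein lipocalin-2, had no UMI in NCD, 1 in HFD replicate 1 and 190 in HFD replicate 2, with 99.5% of the latter in 3 cells. Pclaf, a replication factor, had none in NCD, 101 in HFD replicate 1 and 4 in HFD replicate 2. Each thus rested on 1 HFD library. Both HFD replicates lay above NCD for Top2a, Mki67 and Stmn1, replicate 1 by far the more, and without it Stmn1 was at 0.55.

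Leaving out cells with a Ptprc UMI, a choice made after values were seen, uses a gene that itself rose, and leaves leukocyte RNA in cells with no Ptprc UMI detected. Without these cells 2 of 5 leukocyte genes tested rose, the 1 cycling gene still tested, Stmn1, was at -0.09 with an adjusted p of 0.97, and the calls over all genes became 355 higher (3.71%) and 624 lower (6.52%). Lyz2 still rose there (5.80, adjusted p = 3.2e-08), while Coro1a did not pass (1.39, adjusted p = 0.58). Without predicted doublets none of 6 leukocyte and none of 6 cycling genes tested passed, at medians of 2.70 and 5.57 beside 3.81 and 5.87 with them. The prior degrees of freedom of that fit were 10.4, against 136.6 with all cells, so the lost calls do not show that the differences were gone. DESeq2 called 2 of 8 leukocyte and 1 of 6 cycling genes, the fit with no scaling 4 and 3, and that with at most 1 Clec4g and Stab2 UMI none of 6 and none of 6.

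Of 16 arterial and portal genes, Eln and Mgp rose on the high-fat diet and none fell, with a median of -0.25. Eln was at 23.3 CPM in NCD, 83.1 and 252 in the HFD pair and 180 in JQF (2.76 ± 0.72, adjusted p = 0.010), so all 3 libraries on the diet lay above NCD. Mgp was at 3.39 in NCD, 27.7 and 97.8 in the HFD pair and 146 in JQF (4.11 ± 0.80, adjusted p = 0.00016). Its values rested on few cells, with a UMI in 4 Vwf cells of NCD, 4 and 7 of the HFD replicates and 11 of JQF. Of the Mgp UMIs of both HFD replicates, 91.4% sat in 3 cells. Eln was not confined to arterial cells, at 32.0 in venous and 30.1 in arterial cells of NCD. Neither gene passed without predicted doublets, where Eln was at 2.84 and Mgp at 3.92, or among cells with at most 1 Clec4g and Stab2 UMI, where they were at 5.40 and 3.00. Over all alternative settings Eln stayed between 1.84 and 5.40 and Mgp between 2.71 and 4.75. Without cells holding Ptprc 4 genes of the list rose and 3 fell, beside 3.71% and 6.52% of all genes. Vwf cells that counted as arterial were 25.7% of Vwf cells in NCD, 23.5% and 14.9% in the HFD pair and 26.8% in JQF.

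Of 16 adhesion and cytokine genes tested, Cxcl12, Csf1 and Irf1 fell, none rose, and the median was -0.25. Irf1, an interferon-induced transcription factor, was at 959 CPM in NCD, 84.4 and 278 in the HFD pair and 170 in JQF (-2.49 ± 0.75, adjusted p = 0.038). Csf1, the macrophage growth factor, was at 99.7 in NCD, 6.59 and 35.3 in the HFD pair and 24.5 in JQF (-2.27 ± 0.61, adjusted p = 0.013). Cxcl12 held 99.2% of its NCD UMIs in 3 cells. None of the list passed with DESeq2, without predicted doublets or among cells with at most 1 Clec4g and Stab2 UMI, 1 passed without scaling, and 6 of 15 fell without cells holding Ptprc, where 6.52% of all genes fell.

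Egr1, an immediate early transcription factor, was at 1535 CPM in NCD, 164 and 343 in the HFD pair and 214 in JQF (-2.67 ± 0.80, adjusted p = 0.036), the 1 gene of 10 in its group to pass. The summed level of those 10 immediate early and heat shock genes was 13050 in NCD, 4807 and 5946 in the HFD pair and 3096 in JQF, and in sinusoidal cells 7361, 1526, 3021 and 2892. NCD was thus highest in both classes, and the part of tissue handling was not tested. Hgf was at 158 in NCD, 13.2 and 36.9 in the HFD pair and 47.0 in JQF (-2.69 ± 0.58, adjusted p = 0.00082). In sinusoidal cells, where Hgf was higher, it was at 282, 202, 273 and 255. Vwf cells held a median of 15, 1, 5 and 5 UMIs of Clec4g and Stab2 together, and the part of sinusoidal RNA in the Hgf values was not tested. Apold1, an endothelial early response gene, was at 111, 21.1, 39.1 and 23.5 (-1.93 ± 0.59, adjusted p = 0.043).

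Trim69 and Pde4c fell and passed in every alternative setting in which they were tested. Trim69 (chromosome 2, 122160700 to 122179027), a ubiquitin ligase of the tripartite motif family, was at 315 CPM in NCD, 2.64 and 6.77 in the HFD pair and 28.8 in JQF (-6.01 ± 0.67, adjusted p = 2.1e-11). Sinusoidal cells were at 308, 2.53, 5.02 and 73.8, close to Vwf cells in NCD and HFD and higher in JQF. Sinusoidal cells of HFD replicate 1 summed to only 395689 UMIs, so the Trim69 levels compared in that library rest on very few UMIs. Pde4c, a cyclic AMP phosphodiesterase, was at 129, 10.6, 4.51 and 43.7 (-4.22 ± 0.65, adjusted p = 1.0e-06), and in sinusoidal cells at 87.7, 12.6, 4.01 and 34.6.

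Of the other genes with large falls, some were carried by few NCD cells and some were not. Reln, the extracellular glycoprotein reelin, was at 70.4 CPM in NCD and at 0 in HFD, at least 49.0-fold lower in HFD, with 98.8% of its UMIs in 3 cells. Reln belongs to the lymphatic list and was the 1 gene of 3 tested there to pass. Dcn, the fibroblast and stellate cell proteoglycan decorin, was at 307 in NCD with 99.7% in 3 cells, and at 19.8 CPM and 2 UMIs in HFD replicates 1 and 2. Its direction turned to 2.67 with at least 3 Vwf UMIs per cell and to 5.14 with at most 1 Clec4g and Stab2 UMI. The haemoglobin genes Hbb-bs, Hba-a1 and Hba-a2 fell, 3 of 4 red cell genes tested, with a summed level of 731 in NCD, 0 and 22.6 in the HFD pair and 0 in JQF, and 98.7% of the Hbb-bs UMIs of NCD were in 3 cells. Phkg1, a phosphorylase kinase subunit, was at 54.7 in NCD and at 0 in HFD, at least 38.1-fold lower in HFD, and had a UMI in 30 NCD Vwf cells, with 31.8% of its UMIs in 3. Iqcn, at 61.1 in NCD and 1.32 and 3.01 in the HFD pair, had one in 44 NCD cells (26.4% in 3). The hepatocyte genes Alb and Apoa1 also fell, 2 of 8 tested, from a summed list level of 324 in NCD to 46.2 and 130, and Alb had a UMI in 61 NCD cells.

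**Figure D5:**
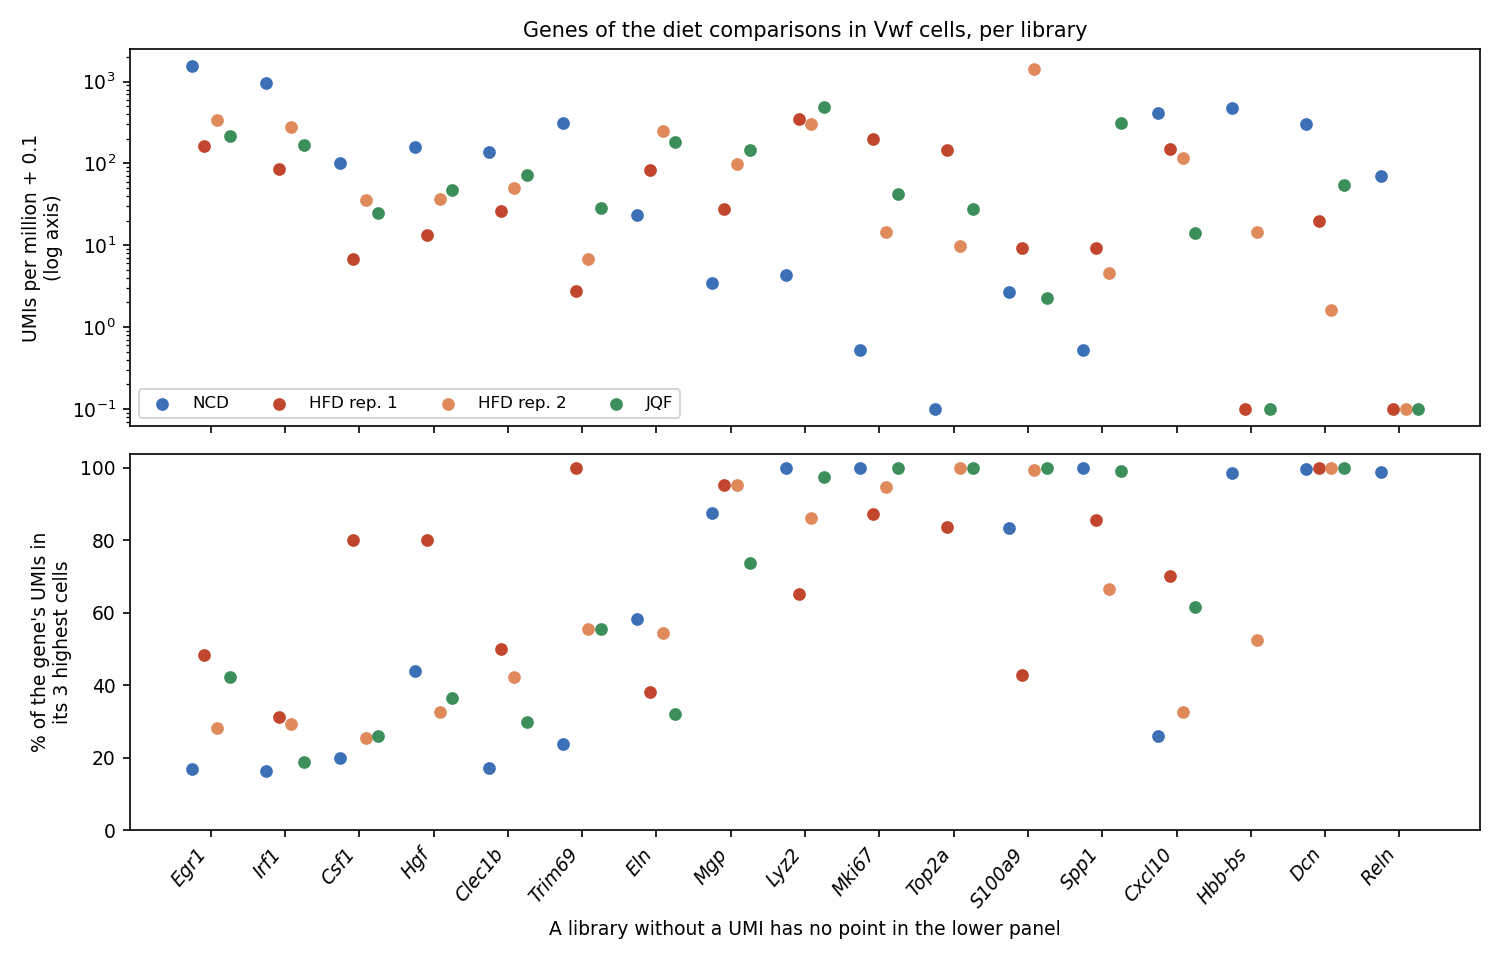
Levels of 17 genes named in the diet comparisons in Vwf cells of each library (top, CPM + 0.1, log axis) and the % of each gene's UMIs found in its 3 highest cells (bottom). Egr1, Irf1 and Trim69 are highest in NCD, where 3 cells hold 17.02% of Egr1 and 16.3% of Irf1, while S100a9, Reln and Dcn have 98.8% or more of their UMIs in 3 cells of the library where they are highest.

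The last comparison of diets asked what differed in Vwf cells after the formula. Between JQF and HFD, 9 genes were higher (0.0836%) and 52 lower (0.483%) of the 10760 tested, with 1 JQF library. No gene of the venous, arterial, haemostasis, matrix, sinusoidal or transcription factor lists passed in either direction. Without scaling beyond library totals only 2 genes passed, both higher, DESeq2 called 1 higher and 1 lower, and the fits without predicted doublets or with the sinusoidal-poor Vwf cells called none, with 271 and 177 genes at an unadjusted p under 0.05.

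Leukocyte and chemokine genes were among those that passed. S100a8 and S100a9 were lower, 2 of 8 leukocyte genes tested. S100a8 was at 0 and 908 CPM in the HFD replicates and 3.20 in JQF, and S100a9 at 9.23 and 1421 in HFD and 2.13 in JQF. The falls rested on HFD replicate 2, where 3 cells held 99.7% of S100a8 and 99.5% of S100a9, and JQF lay above HFD replicate 1 for S100a8. The chemokine genes Cxcl9, Cxcl10 and Ccl2 were lower, 3 of 16 adhesion and cytokine genes. Cxcl9 was at 291 and 120 in HFD and 12.8 in JQF (-4.11 ± 0.92, adjusted p = 0.0057), with 97.3% of its UMIs in 3 cells of HFD replicate 1. Cxcl10 was at 150 and 117 in HFD and 13.9 in JQF, against 412 in NCD (-3.36 ± 0.84, adjusted p = 0.026). Without cells holding Ptprc, Cxcl10 still passed at -2.75 (adjusted p = 2.6e-06), while Cxcl9 did not at -1.26 (adjusted p = 0.43).

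Of the genes that were higher in JQF, Spp1, the gene of osteopontin, was at 308 CPM against 9.23 and 4.51 in HFD (5.45 ± 0.66, adjusted p = 1.0e-09), with 99.3% of its UMIs in 3 cells. Lpl and Siglech were likewise carried by 3 cells, at 98.4% and 100%. Polg2, a subunit of the mitochondrial DNA polymerase, was spread over more cells, with 23.2% in its top 3, at 120 in JQF against 23.7 and 21.8 in HFD and 261 in NCD (2.30 ± 0.61, adjusted p = 0.041). Its levels in sinusoidal cells were 265, 20.2, 18.5 and 92.1.

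Finally, the diet differences of Vwf cells were set against those of sinusoidal cells of the same livers by a class by diet term. For HFD against NCD, 32 of 12157 genes passed (0.263%), 12 with a larger change in Vwf cells and 20 with a smaller or more negative one. For JQF against HFD, 17 passed (0.14%), 7 and 10. Edn1 and Fbln2 were among the 20 for HFD. The log2 change with HFD in Vwf cells minus that in sinusoidal cells was -3.15 ± 0.75 (adjusted p = 0.013) for Edn1 and -3.13 ± 0.77 (adjusted p = 0.020) for Fbln2. Both genes had near 0 in sinusoidal cells of NCD, 0.934 CPM each, and 27.8 and 12.9 for Edn1 and 20.2 and 32.2 for Fbln2 in the HFD replicates. Vwf cells were at 142 for Edn1 and 141 for Fbln2 in NCD, so the ratio of the classes was widest there. Neither gene fell with HFD in Vwf cells, where Edn1 was at 258 and 293 and Fbln2 at 344 and 507 in the HFD replicates. Both genes still passed without cells holding Ptprc, at -2.96 and -3.01. Among Vwf cells with at most 1 Clec4g and Stab2 UMI, 11 of them in NCD, neither passed, Edn1 at -1.78 and Fbln2 turned to 0.82, and neither passed with DESeq2 (-3.22 and -3.15). DESeq2 called 4 genes for HFD against NCD and none for JQF against HFD, where 54 genes had an unadjusted p under 0.05.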

How the data were processed

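Deposited values were UMI counts per gene and barcode in filtered and unfiltered matrices of each library. Per the labels the authors used Cell Ranger 6.0.1, mm10 and Seurat 4.0.3, while the filtered matrices name version 7.0.0 in their headers, so whether intronic reads were counted is not settled. Cells were gated on filtered counts, and Scrublet (scanpy 1.11.5) scored doublets, whose own threshold marked 1, 61, 272 and 1 cells, so the top 421, 457, 958 and 647 by score were left out as an alternative. Empty droplets had at most 100 UMIs. Counts were summed per library and class (758315 to 2357831 UMIs for Vwf cells, 395689 to 58859853 for sinusoidal cells) and tested with edgeR 4.0.16 (quasi-likelihood, TMM, filterByExpr, Benjamini-Hochberg at 0.05) in R 4.3.3, with DESeq2 1.42.0 as an alternative. Class comparisons had a library term, diet comparisons a group term, and the difference between both library, class and class by diet terms. Genes of the gates got no test. Labels do not say that replicates came from separate animals, so p-values measure the spread between these libraries. In the diet fits that spread was drawn toward a trend over all genes. The prior degrees of freedom were 136.6 there and 1210.7 for the class by diet term.

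Named genes were the 10 per direction with the largest fold change among those past the threshold at 50 or more CPM and moving alike in every library, or in both HFD libraries, and the 2 to 4 of each list with the smallest p. Other members of a list are named after values were seen. Cells, lists and tests were chosen with earlier results of these data known. Alternatives changed scaling, the count filter, the Vwf minimum, the sinusoidal minimum, thinning and libraries, while leaving out cells with Ptprc and counting shares of Vwf and sinusoidal cells alone were chosen after seeing the data. Coordinates are GRCm38 gene bounds from GENCODE.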

Additional observations from a re-analysis of the deposited data

Results flagged for a closer look

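Genes whose diet difference in Vwf cells differed from that in sinusoidal cells, by the class by diet term in edgeR, were marked for a closer look when named by the rule. Values are differences of log2 changes, Vwf cells minus sinusoidal cells. For HFD against NCD the leukocyte genes were at 13.21 (S100a8), 7.22 (S100a9), 7.04 (Ltf) and 3.72 (Lyz2), and the cell cycle genes at 10.71 (Top2a) and 6.17 (Mki67). Lsamp was at 9.01 and Ebf1 at 6.70, with 95.2% of Lsamp in 3 cells of HFD replicate 1 and all Ebf1 UMIs of each HFD replicate in 3 cells. S100a8, Top2a and other genes with no UMI in a group have fitted values that depend on the prior count.

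The haemoglobin genes were at -5.39 (Hbb-bs), -5.22 (Hba-a1) and -4.91 (Hba-a2). Other genes with a negative difference were Fxyd6 at -4.81, Grrp1 at -4.42, Vegfc, a lymphangiogenic growth factor, at -3.40, and Nmnat2 at -3.27. The proteoglycan gene Sdc1 was at -3.20, Edn1 at -3.15 and Fbln2 at -3.13. Edn1 and Fbln2 did not fall in Vwf cells. Edn1 went from 142 CPM in NCD to 258 and 293 in HFD and Fbln2 from 141 to 344 and 507, both by less than in sinusoidal cells. Vegfc fell from 478 CPM in NCD Vwf cells to 52.7 and 150 in HFD, and was at 18.4, 70.8 and 27.2 in sinusoidal cells. Xylt1 was at -5.09, with 99.5% of its NCD UMIs in 3 Vwf cells. Among Vwf cells with at most 1 Clec4g and Stab2 UMI, 11 of them in NCD, the haemoglobin genes, Vegfc (9.04), Nmnat2 (8.01), Sdc1 (7.18) and Fbln2 (0.82) turned positive.

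For JQF against HFD, Spp1 was at 5.44, Lpl at 5.38 and Siglech at 4.66. Lower were Ltf at -11.16, S100a9 at -8.80, S100a8 at -7.25, the metallothionein gene Mt2 at -5.64 and the interleukin gene Il1b at -4.24. Mt2 was at 65.9 and 36.1 CPM in Vwf cells of the HFD replicates and 2.13 in JQF.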

How the results depend on the processing

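With Vwf cells against sinusoidal cells 683 genes passed, and 151 to 1239 with 1 library left out. Other counts were 1128 (DESeq2), 1060 (at least 3 Vwf UMIs), 1727 (no Ptprc UMI), 1088 (at most 1 Clec4g and Stab2 UMI), 1660 (no count filter), 232 (no library term) and 1077 (no doublets). Of the 48 named genes that passed in this comparison none reversed, and 21 passed in every setting. Named genes that had not passed were not held to this, and Mki67, for one, went from 0.83 to -5.51. HFD against NCD had 363 calls, and 39 (DESeq2), 979 (no Ptprc), 0 (at most 1 Clec4g and Stab2 UMI, 455 genes at an unadjusted p under 0.05), 165 (no scaling), 168 (thinned to 3000 UMIs) and 27 (no doublets). JQF against HFD had 61, and 2 (DESeq2), 28 (at least 3 Vwf UMIs), 0 (at most 1 Clec4g and Stab2 UMI), 2 (no scaling), 32 (thinned) and 0 (no doublets). The class by diet term for HFD had 32, and 4 (DESeq2), 52 (at least 3 Vwf UMIs), 91 (no Ptprc), 93 (at most 1 Clec4g and Stab2 UMI) and 17 (thinned), and for JQF 17, and 0 (DESeq2), 27 (no Ptprc) and 1 (thinned). Leaving out 1 HFD library left no residual degree of freedom in the diet fits, which then gave fold changes only.

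Shares of endothelial cells in the order NCD, HFD replicates 1 and 2, JQF were 4.42%, 14.9%, 12.2% and 11.8% at 1 or more Vwf UMIs, and 0.291%, 7.11%, 1.81% and 1.93% with at most 1 Clec4g and Stab2 UMI. At 3 or more Vwf UMIs NCD was 1.91% and HFD replicate 2 was 6.22%, thinned NCD was 1.01%, and of Vwf and sinusoidal cells the last 3 libraries were 44.7%, 10.3% and 14.6%. Shares of all kept cells were 2.79%, 1.03%, 1.78% and 1.22% at 1 or more Vwf UMIs, and 0.184%, 0.491%, 0.263% and 0.199% with at most 1 Clec4g and Stab2 UMI. At 3 or more NCD was 1.21% and HFD replicate 2 was 0.907%, and thinned they were 0.650%, 0.464%, 0.823% and 0.829%.

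Among named genes that had passed, directions that reversed, in log2, were Dcn at 2.67 (at least 3 Vwf UMIs) and 5.14 (at most 1 Clec4g and Stab2 UMI) and Stmn1 at -0.0909 (no Ptprc) for HFD against NCD. In the class by diet term for HFD, Top2a was at -0.53 and S100a9 at -0.86 (no Ptprc), Xylt1 at 0.92 (at least 3 Vwf UMIs), and with at most 1 Clec4g and Stab2 UMI Lyz2 was at -1.39, Hbb-bs at 8.62, Hba-a1 at 1.25, Hba-a2 at 8.04, Vegfc at 9.04, Nmnat2 at 8.01, Sdc1 at 7.18 and Fbln2 at 0.82, where NCD held 11 cells. In that for JQF, Spp1 was at -1.05 (no Ptprc), -0.319 (at most 1 Clec4g and Stab2 UMI) and -0.0668 (no doublets), Siglech at -8.30 and -0.46 (the last 2 of these settings), and S100a8 at 1.501 (no Ptprc), 3.13 (no doublets) and between -7.66 and 5.25 with 1 HFD replicate left out, the latter without replicate 2. The cause was not tested.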
